A study of Mus musculus with 6 samples.

Results

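MHC class II molecules carry peptides to the surface of antigen-presenting cells for CD4 T cells. The genes described here encode the chains of the classical molecules (H2-Aa, H2-Ab1 and H2-Eb1), the invariant chain that guides them to the endosome (Cd74), the peptide editor DM (H2-DMa, H2-DMb1 and H2-DMb2), its inhibitor DO (H2-Oa and H2-Ob) and the transactivator Ciita. They were chosen by name, with earlier results of these data known. A probe set was taken where the array annotation gave it exactly 1 gene symbol and that symbol was one of the 10. This left 19 probe sets of 9 genes, out of 45037 probe sets of 18193 named genes on the arrays. H2-DMb1 was read only by probe sets that also carry the symbol H2-DMb2, so it had no member probe set.

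Whole pancreas of NMRI mice was profiled at postnatal day 15 on 6 Affymetrix arrays. Prox1-OE animals carried Jojo-Prox1, a transgene for the homeobox transcription factor Prox1, together with Ngn3-cre (3 arrays). Control animals carried Ngn3-cre without it (3 arrays), so both groups share the Cre. The driver Ngn3 is active in endocrine progenitors, while the RNA came from all cells of the organ, most of them exocrine. Nothing in the labels ties the arrays of a group to different mice, and the p-values thus speak of the spread among the arrays alone. The study asked what differs when Prox1 is overexpressed in beta cells.

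In a resting tissue, class II is made mainly by B cells, dendritic cells and macrophages. Interferon gamma can induce it in other cells through Ciita. Ciita does not bind DNA itself but docks on RFX, CREB and NF-Y proteins bound to an X box and a Y box upstream of class II genes. In the endosome cathepsin S cuts the invariant chain down to a short peptide, DM swaps that peptide for an antigen, and DO holds DM back. Class II genes vary strongly between mouse haplotypes, and the haplotypes of these animals were not analysed here.

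RefSeq promoter windows (GRCm38.p6, from 250 bases before to 50 after a start site) were at hand for 7 of the 10 genes, in 8 windows since H2-DMa had more than 1 start. The stretch around the Y box is shown for 6 genes, 5 of them with the X box motif marked too, because Ciita acts on class II genes through such elements. Each is written 5′ to 3′ on the gene's own strand. Capitals mark GNAAC, a core of the X box, and ATTGG, the Y box to which NF-Y binds.
H2-Aa, chr17:34287842-34287929, minus strand: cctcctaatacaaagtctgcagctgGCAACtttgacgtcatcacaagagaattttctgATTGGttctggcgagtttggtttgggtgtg
H2-Eb1, chr17:34305751-34305837, plus strand: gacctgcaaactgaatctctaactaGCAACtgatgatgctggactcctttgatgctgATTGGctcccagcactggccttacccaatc
H2-Oa, chr17:34092278-34092365, plus strand: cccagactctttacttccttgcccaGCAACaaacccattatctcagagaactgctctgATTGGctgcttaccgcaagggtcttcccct
H2-Ob, chr17:34238793-34238877, plus strand: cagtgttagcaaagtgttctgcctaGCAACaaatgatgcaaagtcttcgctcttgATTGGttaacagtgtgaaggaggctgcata
H2-DMb1, chr17:34153072-34153159, plus strand: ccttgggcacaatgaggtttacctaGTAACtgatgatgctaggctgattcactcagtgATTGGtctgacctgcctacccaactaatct
H2-DMb2, chr17:34145084-34145188, plus strand: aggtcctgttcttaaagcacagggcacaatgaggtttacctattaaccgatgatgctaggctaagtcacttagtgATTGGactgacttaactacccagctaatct

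On the gene's own strand, GNAAC followed by ATTGG at 15 to 35 bases stood in 5 of the 8 windows, those of H2-Aa, H2-Eb1, H2-Oa, H2-Ob and H2-DMb1. The motif letters and the allowed spacing were chosen after these sequences had been read. In these 5 windows 25 to 28 bases separated the motifs, and ATTGG began 43 to 61 bases before the start site. Of all 32851 promoter windows, 1.74% held the pair on the gene strand, 3.51% on either strand, and 37.4% held ATTGG on either strand. H2-DMb2 had ATTGG 90 bases before its start site but no GNAAC at that spacing. Of the H2-DMa windows, 1 held ATTGG, without the pair. A match of letters is a description of the window and no measure of binding.

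Across all 19 probe sets, the class II genes stood out by 1 array. Prox1-OE replicate 1 was the highest of the 6 arrays for 18 of them, against 17.1% of all probe sets. Prox1-OE replicate 3 came above Prox1-OE replicate 2 for 15 of the 19 (53.6% of all probe sets). The median member read 1.02 above the control mean (log2) on Prox1-OE replicate 1, 0.04 on replicate 2 and 0.33 on replicate 3. The median range within the Prox1-OE group was 1.19 for members and 0.23 for all probe sets, while the controls had a median range of 0.29 for members and 0.24 for all probe sets. For the median member the spread thus lay mainly within the Prox1-OE group. For the brightest sets of H2-Aa, H2-Ab1, H2-Eb1 and Cd74 the controls spread as well. Their median range was 0.71 in control and 2.22 in Prox1-OE. The members, and replicate 1 as the array to leave out, were chosen with earlier results of these data known. These shares and those below thus describe the pattern and are no independent test of it. Each member's difference is given with and without replicate 1.

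No member passed the test. At a limma adjusted p of 0.05 over all 45037 probe sets, 0 of 19 were called in either direction, where 5 probe sets (0.0111%) were called on the whole array. At an unadjusted p under 0.05, 7 of 19 were higher in Prox1-OE (2.65% of all), and for 4 of 19 every Prox1-OE array lay above every control (4.6% of all). The median difference was 0.35 for the members and -0.02 for all probe sets, with 16 of 19 members positive against 45.1% of all. Without Prox1-OE replicate 1, the members had a median difference of 0.16, against -0.01 for all probe sets, and 13 of 19 were positive. In that comparison 0 of 19 were called (0% of all), 5 were higher at an unadjusted p under 0.05 (2.01% of all) and for 4 both remaining Prox1-OE arrays lay above every control (8.41% of all). All 7 probe sets under 0.05 with 6 arrays belonged to H2-Aa, H2-Ab1, H2-Eb1 or Cd74, and all 5 without replicate 1 to the 3 classical genes.

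**Figure D1:**
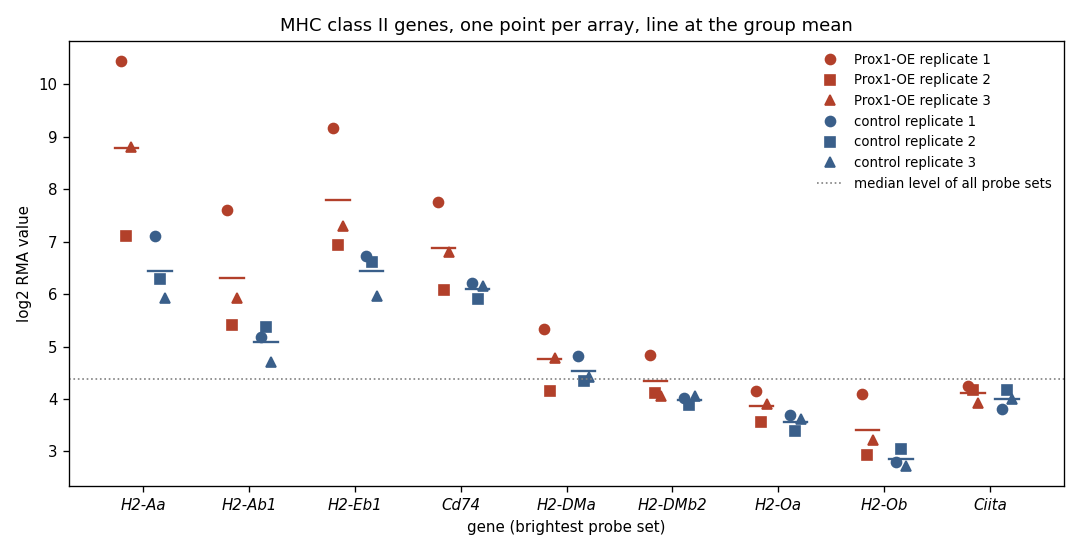
The log2 value on each array for the brightest probe set of the 9 measured class II genes, Prox1-OE left and control right, with lines at the group means and a dotted line at the median level of all probe sets. Prox1-OE replicate 1 is the highest point for all 9 genes, and the H2-DMb2, H2-Oa, H2-Ob and Ciita points lie mostly below the dotted line.

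H2-Aa, the alpha chain of the classical I-A molecule, showed the widest spread. Its brightest probe set (1435290_x_at) read 10.45, 7.11 and 8.81 on Prox1-OE replicates 1, 2 and 3, against 7.11, 6.29 and 5.93 on control replicates 1, 2 and 3. The groups did not overlap, but Prox1-OE replicate 2 exceeded control replicate 1 by only 0.0035. The difference was 2.35 ± 0.70 (log2, SE; limma adjusted p = 0.777, unadjusted 0.00883), or 5.09-fold, and Prox1-OE replicate 1 alone stood 16.1-fold above the control mean. Without that array the difference was 1.52 ± 0.49 (limma adjusted p = 0.974), or 2.87-fold.

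The other H2-Aa probe sets had the same high array. On 1438858_x_at the Prox1-OE arrays read 8.70, 5.78 and 6.36, and the controls lay within 0.03 of each other (5.45, 5.47 and 5.43). Its difference was 1.50 ± 0.61 with 6 arrays and 0.62 ± 0.17 without replicate 1 (limma adjusted p = 0.801 and 0.974), and all Prox1-OE arrays were above all controls. Here the smaller difference had the smaller unadjusted p (0.00591 without replicate 1, 0.0376 with it), with an SE of 0.17 against 0.61. On 1452431_s_at the values were 7.09, 4.87 and 5.84 in Prox1-OE, against 4.89, 4.68 and 4.57 in control, and replicate 2 lay below control replicate 1. That set differed by 1.22 ± 0.45, and by 0.64 ± 0.25 without replicate 1. The dimmest, 1443783_x_at at percentile 12.5 of all levels, differed by 0.65 ± 0.33 and by 0.21 ± 0.15 without replicate 1. Affymetrix marks with x and s the sets whose probes can also bind similar transcripts of other genes, which applies to all 4 H2-Aa sets. The mean of the 4 sets differed by 1.43.

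H2-Ab1, the beta chain paired with H2-Aa, had the same order of arrays on 3 probe sets. The brightest, 1450648_s_at, read 7.61, 5.40 and 5.93 in Prox1-OE, against 5.17, 5.37 and 4.70 in control, so replicate 2 cleared the highest control by 0.03. It differed by 1.23 ± 0.48 (limma adjusted p = 0.801), and by 0.59 ± 0.22 without replicate 1. For 1451721_a_at, whose suffix marks several transcripts of 1 gene, the difference was 1.003 ± 0.43, and 0.43 ± 0.21 without replicate 1, with overlapping groups in both. The probe sets disagreed on direction without replicate 1: 1425477_x_at read 4.35 and 4.81 on Prox1-OE replicates 2 and 3, against 4.58 to 4.71 in control, a difference of -0.06 ± 0.15, where that of all 6 arrays was 0.30 ± 0.27.

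H2-Eb1, the beta chain of the classical I-E molecule, has a single probe set with no sharing suffix. It read 9.17, 6.94 and 7.30 in Prox1-OE, against 6.72, 6.61 and 5.97 in control. The groups did not overlap, and replicate 2 exceeded the highest control by 0.22. The difference was 1.37 ± 0.50 (2.58-fold; limma adjusted p = 0.783), and 0.68 ± 0.22 without replicate 1 (1.61-fold; limma adjusted p = 0.974).

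The alpha chain of I-E, H2-Ea, was no member but belongs to the same molecule, and the difference of its brightest set had the other sign. That set read 5.71, 6.25 and 5.83 in Prox1-OE, against 6.27, 6.15 and 6.39 in control. It was lowest on Prox1-OE replicate 1, the array on which H2-Eb1 was highest, and differed by -0.34 ± 0.15 (limma adjusted p = 0.801). Without replicate 1 the difference was -0.23 ± 0.15 (unadjusted p = 0.16 in limma), and the mean of its 3 sets differed by -0.09 (unadjusted p = 0.327 in limma).

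Cd74, the invariant chain, gave 7.76, 6.08 and 6.80 in Prox1-OE, against 6.21, 5.92 and 6.15 in control. Replicate 1 stood 3.18-fold above the control mean and replicate 3 was also above every control, while replicate 2 lay among them. The difference was 0.79 ± 0.34 (limma adjusted p = 0.808, unadjusted 0.0483), and 0.35 ± 0.20 without replicate 1 (unadjusted 0.124). Of replicates 2 and 3 taken singly, replicate 3 differed from the control mean by 0.71 and replicate 2 by -0.01.

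**Figure D2:**
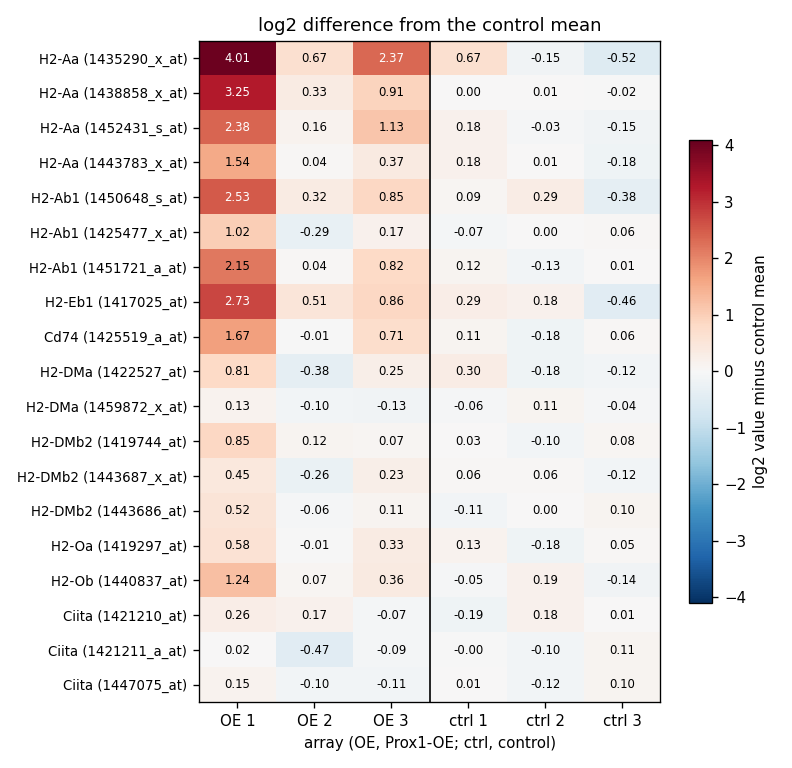
The log2 value minus the control mean of each of the 19 probe sets (rows, grouped by gene) on the 3 Prox1-OE arrays (left) and 3 control arrays (right). The Prox1-OE replicate 1 column runs up to 4.01 in the H2-Aa rows and down to 0.02 in the Ciita rows, and replicate 2 lies between -0.47 and 0.67.

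The peptide editor DM is a dimer of H2-DMa with a beta chain from H2-DMb1 or H2-DMb2. H2-DMa read 5.34, 4.15 and 4.78 on its brighter probe set in Prox1-OE, against 4.83, 4.35 and 4.41 in control. Replicate 1 was the highest array and replicate 2 the lowest, so the groups overlapped fully. The difference was 0.23 ± 0.27 (95% interval -0.38 to 0.84; limma adjusted p = 0.914), and -0.06 ± 0.21 without replicate 1. The second H2-DMa set, near the floor of the array at percentile 9.42, differed by -0.04 ± 0.11, and by -0.12 ± 0.11 without replicate 1. The mean of both sets differed by 0.10.

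H2-DMb2 was read by 3 probe sets. The brightest, 1419744_at, gave 4.84, 4.11 and 4.06 in Prox1-OE, against 4.01, 3.89 and 4.06 in control. Replicates 1 and 2 lay above every control, replicate 2 narrowly, and replicate 3 just below the highest one. It differed by 0.35 ± 0.19 (limma adjusted p = 0.822) and by 0.09 ± 0.11 without replicate 1. The other 2 sets, at percentiles 24.4 and 25.2, differed by 0.19 ± 0.15 and 0.14 ± 0.17, and by 0.03 ± 0.12 and -0.02 ± 0.16 without replicate 1. The mean of the 3 sets differed by 0.23.

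DO is the dimer of H2-Oa and H2-Ob and in mice is found mainly in B cells. H2-Oa read 4.15, 3.56 and 3.89 in Prox1-OE, against 3.70, 3.39 and 3.61 in control. Its difference was 0.30 ± 0.15 (limma adjusted p = 0.813), and 0.16 ± 0.14 without replicate 1. H2-Ob gave 4.09, 2.93 and 3.22 in Prox1-OE, against 2.81, 3.04 and 2.72 in control. Here replicate 3 also lay above every control and replicate 2 did not. It differed by 0.56 ± 0.26 (limma adjusted p = 0.810), and by 0.22 ± 0.14 without replicate 1, at a level of percentile 13.2.

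Ciita, the transactivator of all these genes, showed no shared shift across its 3 probe sets. The brightest read 4.25, 4.16 and 3.92 in Prox1-OE, against 3.80, 4.18 and 4.003 in control, a difference of 0.12 ± 0.13 (95% interval -0.18 to 0.41; limma adjusted p = 0.905). The other 2 sets differed by -0.18 ± 0.14 and -0.02 ± 0.11. Without replicate 1 the 3 sets differed by 0.05 ± 0.14, -0.28 ± 0.14 and -0.11 ± 0.11, and the mean of the sets with 6 arrays was -0.03 apart. On 1421211_a_at, Prox1-OE replicate 2 had the lowest value of the 6 arrays (3.18) and replicate 1 (3.67) lay within the controls (3.55 to 3.76). On Prox1-OE replicate 1, where the classical genes stood 1.02 to 4.01 above the control mean, the Ciita sets stood 0.02 to 0.26 above it. All 3 lay below the median level of the array (percentiles 15.9 to 43.1), which limits what they can show.

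**Figure D3:**
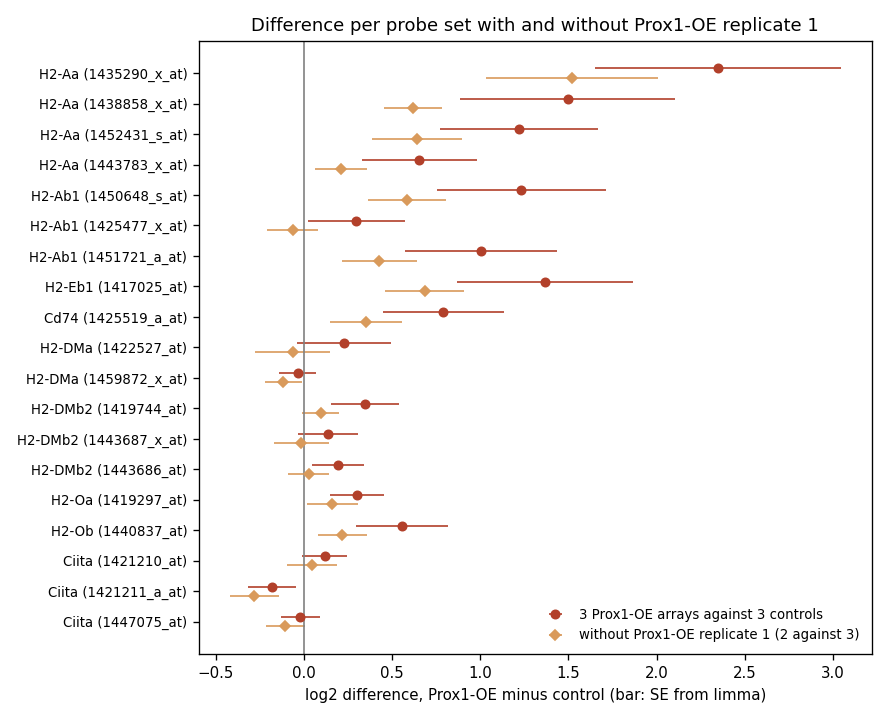
Log2 difference between Prox1-OE and control for each probe set, with the SE from limma as a bar, for all 6 arrays (circles) and without Prox1-OE replicate 1 (diamonds). All 8 sets of the classical genes are positive with 6 arrays (0.30 to 2.35) and 7 of 8 without replicate 1 (-0.06 to 1.52); the Ciita sets lie around 0 in both.

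Proteins that work on class II before and after loading were taken as a list of 12 genes, 11 of them measured. None passed over all probe sets. At an unadjusted p under 0.05 there were 2 higher and 2 lower, where 2.65% of all probe sets were higher (2.01% without replicate 1). Ctss, the cathepsin S that trims the invariant chain, read 9.29, 7.67 and 8.16 in Prox1-OE, against 7.16, 6.84 and 6.62 in control, with no overlap (difference 1.50 ± 0.35, limma adjusted p = 0.772). Lgmn, an asparaginyl endopeptidase of lysosomes, differed by 0.62 ± 0.19, with all Prox1-OE arrays above all controls (5.60 to 6.37 against 5.19 to 5.54). Ctsl, the related cathepsin L, was lower on every Prox1-OE array (12.17 to 12.38, against 12.43 to 12.82 in control; difference -0.36 ± 0.12). The fourth under 0.05 was H2-Ea. Ifi30, the thiol reductase GILT, differed by -0.03 and Marchf1, a ligase that removes class II from the surface, by 0.05. Over this list the median difference was 0.02. Without replicate 1 it was -0.08, with 2 higher and 1 lower at an unadjusted p under 0.05, and Ctss, Lgmn, Ifi30 and Marchf1 differed by 1.04, 0.41, -0.11 and -0.25.

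Of the 18 measured genes of class II gene regulation, 0 passed, and the median difference was 0.04. At an unadjusted p under 0.05, where 2.65% of all probe sets were higher (2.01% without replicate 1), 1 was higher and none lower. Ifngr1, a chain of the interferon gamma receptor, was that 1, at 7.67, 7.35 and 7.39 in Prox1-OE, against 7.21, 6.93 and 7.02 in control (difference 0.42 ± 0.12, limma adjusted p = 0.777). Irf8, a factor of myeloid and B cells, differed by 0.48 ± 0.23 and Jak2, a kinase of that receptor, by 0.17 ± 0.11. Rfxank, an RFX subunit, differed by 0.17 ± 0.12, while Rfx5 and Rfxap, also of RFX, differed by -0.15 ± 0.12 and 0.10 ± 0.14. Ifng itself lay at percentile 3.36 and differed by 0.00. Without replicate 1 the list had 1 higher and 1 lower at an unadjusted p under 0.05 and a median of -0.01. The lower gene was Rfx5 (-0.27), and Irf8 and Jak2 differed by 0.19 and 0.10. With the mean of their sets, Irf8 differed by 0.77 and Rfxank by 0.07.

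Costimulatory genes, whose products sit beside class II on presenting cells, gave 0 of 9 past the threshold, with 2 higher and 1 lower at an unadjusted p under 0.05. Over all probe sets 2.65% were higher at that p, and 2.01% without replicate 1. Cd83, which stabilises class II on the surface, read 5.21, 3.85 and 4.78 in Prox1-OE, against 3.66, 3.78 and 3.54 in control, again in the order of replicates 1, 3 and 2 (difference 0.96 ± 0.29, limma adjusted p = 0.777). Cd86, a ligand of CD28, differed by 0.43 ± 0.17. Tnfsf4, the OX40 ligand, differed by -0.35 ± 0.11 at percentile 19.3, and Cd40, a receptor on presenting cells, by -0.19 ± 0.13 (-0.02 with the mean of its 3 sets). Without replicate 1 there was 1 higher and 1 lower at an unadjusted p under 0.05, and Cd83 and Cd86 differed by 0.66 and 0.35.

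On the same chromosome as most members lie genes of class I presentation, which made neighbours a useful comparison. RefSeq orders 14 protein-coding genes on chromosome 17 from H2-Oa to H2-Eb2, 8 of them members. The 7 measured members differed by 0.23 to 2.35 (median 0.56) and the 6 other genes by -0.01 to 0.82 (median 0.21), and 0 of either were called. At an unadjusted p under 0.05 in limma, 3 of the 7 members and 3 of the 6 other genes were higher. Those other genes were Psmb8, Psmb9 and Tap2, each with every Prox1-OE array above every control. Brd2, a bromodomain protein between H2-Oa and H2-DMa, read 9.36, 9.34 and 9.39 in Prox1-OE, against 9.40, 9.54 and 9.17 in control. Psmb8, an immunoproteasome subunit, had its highest value on replicate 1, at 6.27, 5.08 and 5.58 in Prox1-OE, against 4.69, 4.79 and 4.99 in control (difference 0.82 ± 0.26). H2-Eb2, next to H2-Eb1, differed by 0.01. Of the list of 10 class I presentation genes, 0 passed, and 4 were higher at an unadjusted p under 0.05: Psmb8, B2m, which encodes the light chain of class I (0.90 ± 0.28), Tap2, a peptide transporter chain (0.36 ± 0.13), and Psmb9, another immunoproteasome subunit (0.38 ± 0.16). Over all probe sets 2.65% were higher at that p, and 2.01% without replicate 1. Without replicate 1 only 2 of the 10 were higher at an unadjusted p under 0.05. Psmb8, B2m, Tap2 and Psmb9 then differed by 0.51, 0.55, 0.24 and 0.19. H2-Eb2 then differed by -0.17, and Psmb8 with the mean of its 2 sets and 6 arrays by 0.43.

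**Figure D4:**
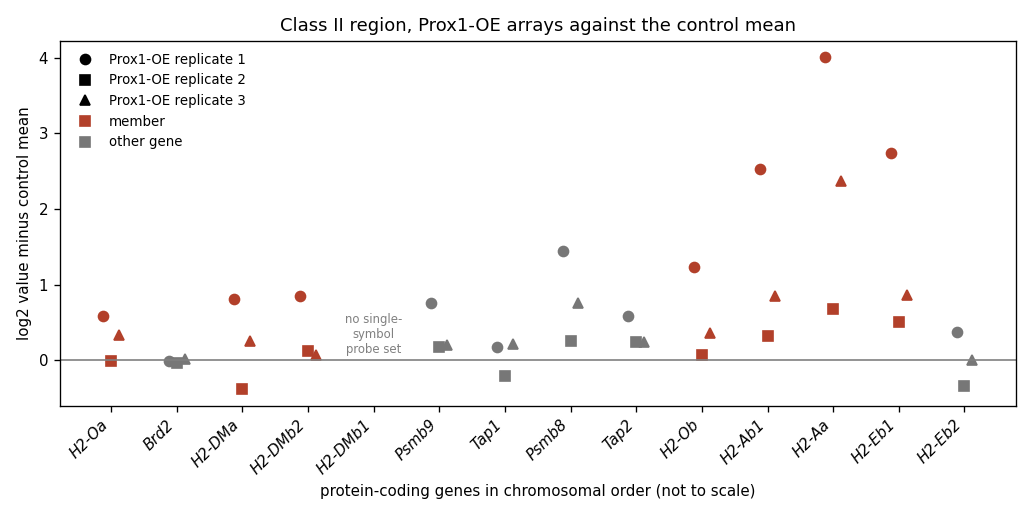
The log2 value minus the control mean on each Prox1-OE array for the 13 measured of 14 protein-coding genes of the class II region in RefSeq order, members in red and other genes in grey. Prox1-OE replicate 1 reaches 4.01 at H2-Aa and 1.45 at Psmb8, while all arrays lie near 0 at Brd2.

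Markers of the cells that make class II, and of lymphoid tissue, were set beside the members array by array. More cells of a type and more RNA per cell cannot be told apart in whole tissue. The mean of H2-Aa, H2-Ab1, H2-Eb1 and Cd74 (brightest sets) was 2.73, 0.37 and 1.20 above its control mean on Prox1-OE replicates 1, 2 and 3, and between -0.32 and 0.29 on the controls. The 9 pan-leukocyte genes had 2.24, 0.34 and 1.12 on the same arrays, and 15 B cell genes 1.23, 0.10 and 0.39. The 15 macrophage genes gave 0.86, 0.29 and 0.38, and the 8 measured genes of lymph node stroma and vessels 1.42, 0.21 and 0.73. For these 4 lists the order of the Prox1-OE arrays was that of the class II genes. The plasma cell (0.84, 0.00 and 0.24), helper T cell and dendritic cell (0.20, -0.04 and 0.15) lists had this order too. So did the lists of class I presentation, class II processing and class II regulation, but not the acinar and islet lists. Costimulation had this order only narrowly, with replicates 1 and 3 nearly level (0.197 and 0.195). Of all probe sets taken singly, 17.6% had it. The part of these lists in the class II values was not tested.

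As levels, the pan-leukocyte list averaged 5.90 to 7.81 in Prox1-OE and 5.48 to 5.67 in control. Here 9 of 9 genes were positive, 7 of them at an unadjusted p under 0.05, and 0 were called. For this and the lists below, 45.1% of all probe sets were positive and 2.65% were higher at an unadjusted p under 0.05. Without replicate 1 these shares were 46.2% and 2.01%. Ptprc, the CD45 antigen of all leukocytes, read 8.92, 5.55 and 7.56 in Prox1-OE, against 5.38, 5.21 and 5.19 in control. The named genes with the smallest p were Cd52 (2.33 ± 0.64), Laptm5 (1.14 ± 0.33), Cd53 (1.45 ± 0.42) and Rac2 (0.83 ± 0.24), all with adjusted p = 0.777 in limma. Without replicate 1, 7 of the 9 were under an unadjusted p of 0.05, and Ptprc, Cd52, Laptm5, Cd53 and Rac2 differed by 1.30, 1.54, 0.68, 0.88 and 0.57. With the mean of a gene's sets and 6 arrays, Laptm5, Cd53 and Rac2 differed by 0.51, 0.80 and 0.40.

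B cell genes averaged 4.18 to 5.31 in Prox1-OE and 4.02 to 4.12 in control, with 12 of 15 positive, 4 at an unadjusted p under 0.05, 0 called and 10 below the median level of the array. Ms4a1, which encodes CD20, read 7.80, 4.79 and 6.35 in Prox1-OE, against 4.25, 4.04 and 3.86 in control. Cd79a and Pax5, both defining for the lineage, differed by -0.07 and -0.10, at percentiles 39.6 and 49.997. Ighm differed by 1.44 ± 0.47, Cd37 by 0.88 ± 0.35 and Bank1 by 1.07 ± 0.47. The Ighm value rests on its brightest set, and the mean of its 11 sets differed by 0.29. Without replicate 1, 4 of the 15 were under an unadjusted p of 0.05, and Ms4a1, Ighm, Cd37 and Bank1 differed by 1.52, 0.82, 0.39 and 0.42, Cd79a and Pax5 by -0.17 and -0.03.

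Macrophage genes averaged 6.42 to 6.99 in Prox1-OE and 5.998 to 6.20 in control, so the groups did not overlap, with 13 of 15 positive, 9 at an unadjusted p under 0.05 and 0 called. The leading members were C1qc (0.59 ± 0.13), Fcgr3 (0.56 ± 0.13), Cd68 (0.62 ± 0.15) and Lyz2 (1.002 ± 0.27). C1qa, at percentile 90.8, and Fcgr1 had the other sign, at -0.13 ± 0.15 and -0.06 ± 0.13, and both were at -0.19 without replicate 1. Without replicate 1, 7 of the 15 were under an unadjusted p of 0.05, and Lyz2 differed by 0.66. Dendritic cell genes averaged 4.79 to 5.03 in Prox1-OE and 4.77 to 4.89 in control, with 6 of 12 positive and 0 called. At an unadjusted p under 0.05, 2 of these genes were higher, and also 2 without replicate 1. Their leading members, Fscn1 (0.70 ± 0.25), Naaa (0.25 ± 0.10), Ccr7 (0.35 ± 0.17) and Cd209a (-0.20 ± 0.11), differed in direction, and the defining Itgax, Xcr1 and Flt3 differed by -0.02, -0.05 and -0.05. Without replicate 1, Fscn1 and Ccr7 differed by 0.40 and 0.20, and Itgax, Xcr1 and Flt3 by -0.13, -0.12 and -0.02. With the mean of their sets and 6 arrays, Fscn1 and Naaa differed by 0.20 and 0.09.

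Helper T cells, which read class II, were covered by 14 genes, with 10 positive, 1 at an unadjusted p under 0.05 and 0 called. Their mean was 0.45, -0.09 and 0.14 above the control mean on the Prox1-OE arrays. Cd4, the coreceptor for class II, read 6.19, 5.999 and 6.10 in Prox1-OE, against 6.05, 6.16 and 6.16 in control (difference -0.03 ± 0.09). Lat, an adaptor of the T cell receptor, did not follow the class II order: 4.88, 4.82 and 4.81 in Prox1-OE, against 4.20, 4.19 and 4.29 in control (difference 0.61 ± 0.09, limma adjusted p = 0.369). Cd3d differed by 0.71 ± 0.40, Cd3e by -0.27 ± 0.14 and Cd28 by 0.25 ± 0.15. Without replicate 1 Lat differed by 0.59, Cd3d by 0.14, Cd28 by 0.11 and Cd4 by -0.07.

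Lymph node stroma and vessel genes averaged 4.75 to 5.95 in Prox1-OE and 4.41 to 4.63 in control, with 7 of 8 positive, 4 at an unadjusted p under 0.05 and 0 called. Glycam1, a mucin of high endothelial venules, was at 8.49 on Prox1-OE replicate 1 and 6.83 on replicate 3, but at 3.26 on replicate 2, against 3.30 to 3.72 in control. Of the other vessel markers, Madcam1, Chst4 and Fut7 differed by 0.30, 0.06 and -0.13. Tnfsf11 (0.80 ± 0.28), Lyve1 (0.68 ± 0.28) and Cxcl13 (0.98 ± 0.42) completed the leading 4, and Cxcl13 was highest on replicate 2 (7.59). Plasma cell genes had 5 of 5 positive, 0 at an unadjusted p under 0.05, and were led by Jchain, the joining chain of antibodies, at 6.24, 3.67 and 4.17 in Prox1-OE, against 3.69 to 3.86 in control. Their other leading genes were Mzb1 (0.36 ± 0.22), Sdc1 (0.17 ± 0.13) and Tnfrsf17 (0.14 ± 0.10), with Sdc1 at 0.08 with the mean of its sets. Without replicate 1, Jchain, Mzb1 and Sdc1 differed by 0.16, 0.09 and 0.07, and of the lymph node list 1 of 8 was under an unadjusted p of 0.05, with Glycam1, Tnfsf11 and Lyve1 at 1.54, 0.45 and 0.33 and Chst4 at -0.03.

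The labelled tissue was checked against its own markers. The 6 measured acinar genes averaged 14.5 to 14.6 in both groups, close to the highest value on the arrays, where a difference may not be resolved. They were led by Ctrb1 (-0.07 ± 0.09), Cpa1 (-0.05 ± 0.08), Cela1 (-0.05 ± 0.08) and Cpb1 (-0.03 ± 0.08). The 7 islet genes averaged 9.77 to 10.1 in Prox1-OE and 9.65 to 10.2 in control, with 1 called. Chga, of endocrine granules, fell by 1.51 (log2, SE 0.14; limma adjusted p = 0.0311). It read 7.28 to 7.66 in Prox1-OE, against 8.76 to 9.17 in control. The call ended without any of the 3 Prox1-OE arrays and without control replicate 1 or 2 (limma adjusted p = 0.0772 to 0.218). It also ended with the replicate number as a block (limma adjusted p = 0.0698). The difference in these settings lay between -1.61 and -1.40. Ppy, Pdx1 and Iapp differed by 1.29 ± 0.37, -0.22 ± 0.15 and -0.15 ± 0.15, and without replicate 1 by 0.78, -0.36 and -0.26.

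**Figure D5:**
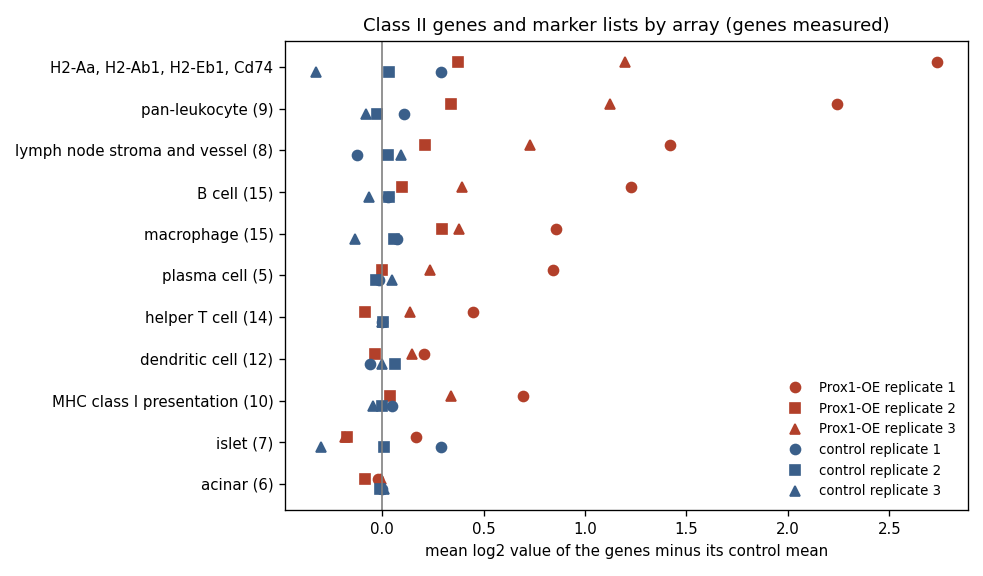
The mean log2 value of the 4 class II genes and of 10 gene lists, each minus its control mean, on the 3 Prox1-OE arrays (red) and 3 control arrays (blue); the number of genes measured follows the name of each list. Prox1-OE replicate 1 lies at 2.73 for the class II genes and 2.24 for the pan-leukocyte genes, against -0.02 for the acinar genes.

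The genes outside the members whose profile lay closest to that of H2-Aa, H2-Ab1, H2-Eb1 and Cd74 were ranked by the root mean square distance of control-centred log2 values over the 6 arrays, among 18184 genes with a median distance of 1.25. Ms4a6b, a membrane protein of the CD20 family, was nearest at 0.12, reading 7.86, 5.70 and 6.64 in Prox1-OE, against 5.67, 5.48 and 4.93 in control. Cd53, a leukocyte tetraspanin, followed at 0.17, Ctss at 0.22, Epsti1 at 0.24 and Mpeg1, perforin-2 of macrophages, at 0.26. The next 5 were Bank1, a B cell scaffold protein (0.28), Serpina1b, an alpha-1-antitrypsin (0.30), Csf2rb2, a cytokine receptor chain (0.31), a variable segment of the immunoglobulin kappa light chain (0.31) and Dock10 (0.32). None of the 10 passed over all probe sets (limma adjusted p = 0.772 to 0.813), and without replicate 1 their differences lay between 0.39 (Serpina1b) and 1.04 (Ctss). With the mean of their sets and 6 arrays, Epsti1 and Dock10 differed by 0.44 and 0.63, against 1.14 and 1.06 on the brightest. Among the members themselves, the brightest Ciita set lay at 1.17, the brightest H2-DMa set at 0.93 and H2-Oa at 0.98 from the same profile, and the closest was H2-Eb1 at 0.17, which is part of it. The distance is not scaled for the size of the differences. These sets of H2-DMa and H2-Oa thus lie far from the profile although their Prox1-OE arrays had the same order.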

How the data were processed

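Per the submitters' processing notes, the authors used RMA and Partek 6.5, with no settings given, and the deposited values are log2 probe set summaries of 3' expression arrays. Array medians ran from 4.37 to 4.42. Because RMA equalises the arrays, a change in total RNA cannot be seen. The genome build behind the array design is not given in the sources used here. Of 45101 probe sets, 64 Affymetrix controls were left out. The annotation gave 34945 of the rest 1 symbol, 932 several and 9160 none.

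Every probe set was fitted with limma 3.58.1 (lmFit, then eBayes; R 4.3.3), with Benjamini-Hochberg adjustment over all 45037, two-sided, at 0.05, with and without Prox1-OE replicate 1. Unless named otherwise, p-values are from limma. The fit was tested on simulated data. In lists, the probe set with the highest mean stood for a gene; the genes named are all members, up to 4 of each of 13 lists by smallest p, and the 10 nearest profiles. Ptprc, Madcam1, Chst4, Fut7, Cd4, Cd79a, Pax5, Itgax, Xcr1, Flt3, Ifng, Ifi30, Marchf1, Brd2 and H2-Eb2 were chosen after their values were seen. The same holds for C1qa, Fcgr1, Rfx5 and Rfxap. Members and lists were chosen with earlier results of these data known. The number of arrays limits the precision.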

Additional observations from a re-analysis of the deposited data

Results flagged for a closer look

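A probe set annotated to both H2-DMb2 and H2-DMb1 (1418638_at), outside the comparisons above because it has 2 symbols, read higher in every Prox1-OE array than in any control. It gave 3.89, 3.26 and 3.49 in Prox1-OE, against 3.17, 2.91 and 3.19 in control, a log2 difference of 0.45 ± 0.16 (limma adjusted p = 0.779) at percentile 20.5 of all levels, and of 0.28 ± 0.13 without Prox1-OE replicate 1. It was the only one of the 3 such probe sets that did so: the other set of these 2 genes (1449580_s_at) differed by 0.02 ± 0.20, with Prox1-OE replicate 1 the highest array (5.43) and replicate 2 the lowest (4.54), and the set shared by H2-Ob and Gm20506 differed by -0.08 ± 0.11.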

How the results depend on the processing

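No class II member passed the threshold under any of the 15 other settings with 6 arrays or the 14 without Prox1-OE replicate 1. Over the 15, the brightest H2-Aa set ran from 1.52 to 3.19 (adjusted p 0.226 to 0.974), H2-Eb1 from 0.68 to 1.80 (0.617 to 0.974) and Cd74 from 0.35 to 1.19 (0.488 to 0.974). With dim probe sets left out the members' median was 1.22, and 0.59 without replicate 1, since only the 9 brighter member sets stay in. That filter reads the mean of all arrays, so it keeps a set such as H2-Ab1 1451721_a_at (control mean 4.096, median of all sets 4.39) through its Prox1-OE level, and the larger median is partly built in. Leaving out a second array moved the median without replicate 1 over 0.035 to 0.33. Over all probe sets, 3 higher and 2 lower became 0 to 5 and 0 to 3 on leaving out an array; lower calls were 1 with 1 value per gene (brightest or mean) and 0 with the replicate block. Without Prox1-OE replicate 1, calls were 2 higher and 1 lower with trend and robust settings, 2 higher with the replicate block, and 0 to 4 higher and 0 to 2 lower on leaving out another array. The labels give no shared source for equal replicate numbers. Deviations of same-numbered arrays correlated at 0.06, 0.17 and 0.10, and every array correlated best with its own number. With the number as a block the members' median was 0.35, and 0.19 without replicate 1, and 0 members were called.

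Several signs turned, those of Cd74, H2-DMa and H2-Ab1 1425477_x_at among them. On leaving out arrays, a difference is that of the arrays that remain: Cd74 at -0.0078 is Prox1-OE replicate 2 alone against the control mean. The cause of the other turns, and of the differences between arrays, was not tested. With 6 arrays, Ciita was -0.028 with the mean of its sets, its set 1447075_at was 0.0065 and Cpb1 0.019 with quantile normalization again. On leaving out an array, 1447075_at ran from -0.11 to 0.032, H2-Ab1 1425477_x_at from -0.064 to 0.59, H2-DMa from -0.064 to 0.53, its set 1459872_x_at from -0.12 to 0.019 and H2-DMb2 1443687_x_at from -0.016 to 0.34. Without replicate 1, Ciita was -0.11 with the mean of its sets and -0.048 with the block, H2-DMb2 1443687_x_at was 0.0074 with quantile normalization, 0.0038 with median centring and 0.015 with the block, and H2-DMa (0.084) and H2-DMb2 1443686_at (-0.026) turned with the block. On leaving out another array, Cd74 ran from -0.0078 to 0.71, H2-Oa from -0.0055 to 0.33, Ciita from -0.072 to 0.17, H2-DMa from -0.38 to 0.25, H2-Ab1 1425477_x_at from -0.29 to 0.17, H2-DMb2 1443686_at from -0.060 to 0.11 and 1443687_x_at from -0.26 to 0.23. Where an omission left 1 Prox1-OE array, it is assumed to vary like the controls.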
